A study of Homo sapiens with 6 samples.

Results

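The core histone gene clusters are the places on chromosomes 6 and 1 where most human replication-dependent genes for histones H2A, H2B, H3 and H4 lie side by side. Their accessible chromatin was taken as all peaks that overlapped 1 of 4 windows of the hg19 genome and no H1 gene: the proximal 6p22 cluster at 26.02 to 26.29 Mb and the distal 6p22 cluster at 27.76 to 27.88 Mb of chromosome 6, the 1q21 cluster at 149.78 to 149.87 Mb and the 1q42 cluster at 228.6 to 228.66 Mb of chromosome 1. Of 914202 peaks in the 6 libraries, 393 belonged to these clusters. Merged across libraries, they formed 90 regions of 248031 in all, and 45 of these regions, of 92505 in all, held a peak in every library. The rule of choice used position alone and no measured value, but it was set with earlier results of these data known.

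The assay was ATAC-seq, in which a transposase inserts sequencing adapters into open DNA, on U2OS, an established human osteosarcoma cell line. WT cells gave 3 libraries and CRAMP1-KO cells, which lack the chromatin protein CRAMP1 according to their genotype label, gave 3. All cells grew in the same medium, and every library began with 50000 cells, 30 minutes of tagmentation and 7 cycles of PCR per the labels' protocols. Whether a replicate was a culture of its own, and how many clones the knockout represents, is not stated in any label. All p-values describe only how libraries spread, which may be technical. Where 3 values are given for a genotype, they belong to its replicates 1, 2 and 3 in that order.

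Replication-dependent histone genes are short and without introns, their mRNAs end in a stem-loop in place of a poly(A) tail, and they are transcribed mainly in S phase, when new DNA is packed into nucleosomes. Many are arranged as an H2A and an H2B gene that start back to back from a common promoter. Transcription of the clusters is organised in the histone locus body, a nuclear structure built around NPAT, and CRAMP1 is known as a regulator of the linker histone H1 genes that lie among them. Accessibility at these genes measures open chromatin, not mRNA.

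The promoters of 5 genes on which the results turn are printed first, as the 200 bases before the start of the RefSeq transcript in the GRCh38.p14 build. H2AC6 and H4C11 have their starts in the regions with a called rise of summit pileup. H2BC14 belongs to the start region that was split in every WT library and in no CRAMP1-KO library. H4C5 is a start with a wider covered length in every CRAMP1-KO library, and H4C6 is a start at which no peak was listed. Capitals mark the CCAAT box, the TATAAA core of a TATA box or the octamer ATTTGCAT, read on either strand, so that some appear as their reverse complement. All 5 genes lie on the plus strand, and the coordinates are GRCh38.p14 positions, which are not comparable with the hg19 positions of the peaks.
H2AC6, chr6:26123972-26124171: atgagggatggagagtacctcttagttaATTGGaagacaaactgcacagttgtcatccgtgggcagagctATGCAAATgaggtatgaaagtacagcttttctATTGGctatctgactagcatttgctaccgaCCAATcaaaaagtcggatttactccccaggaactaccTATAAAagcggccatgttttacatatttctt
H4C11, chr6:27823892-27824091: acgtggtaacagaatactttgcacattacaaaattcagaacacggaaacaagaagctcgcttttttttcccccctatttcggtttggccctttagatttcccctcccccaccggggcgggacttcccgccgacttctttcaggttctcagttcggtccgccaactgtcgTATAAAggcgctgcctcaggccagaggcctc
H2BC14, chr6:27814822-27815021: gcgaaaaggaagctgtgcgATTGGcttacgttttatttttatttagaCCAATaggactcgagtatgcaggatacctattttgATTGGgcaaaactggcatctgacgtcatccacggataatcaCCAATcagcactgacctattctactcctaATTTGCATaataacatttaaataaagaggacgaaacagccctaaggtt
H4C5, chr6:26204410-26204609: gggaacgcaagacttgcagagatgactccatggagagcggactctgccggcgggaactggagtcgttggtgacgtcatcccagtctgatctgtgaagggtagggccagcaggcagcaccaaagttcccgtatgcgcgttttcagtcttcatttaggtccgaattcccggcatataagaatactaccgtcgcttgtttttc
H4C6, chr6:26240193-26240392: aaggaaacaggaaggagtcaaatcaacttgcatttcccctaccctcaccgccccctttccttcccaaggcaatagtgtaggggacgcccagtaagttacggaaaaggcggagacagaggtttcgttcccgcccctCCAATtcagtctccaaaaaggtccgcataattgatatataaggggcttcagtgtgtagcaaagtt
The H2A and H2B promoters shown hold CCAAT boxes and the octamer ATTTGCAT, and the H4 promoters shown do not hold the octamer.

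The same search, over the 250 bases before a start and on both strands, was made in the RefSeq promoters of 52 core histone genes and of all 27195 genes in the table. CCAAT, the box read by the factor NF-Y, stood in 82.7% of the core histone promoters and in 33.0% of all promoters. It was in all 14 H2A, all 15 H2B and all 12 H3 promoters, and in 2 of 11 H4 promoters. TATAAA, the core of the TATA box, stood in 65.4% of the core histone promoters against 11.1% of all. ATTTGCAT, the octamer read by OCT1, stood in 40.4% against 1.66%, namely in 9 H2A, 11 H2B, 1 H3 and no H4 promoters. AAACACA, the box known from linker histone H1 promoters, was searched too and stood in none of the 52, against 4.96% of all promoters. The core histone promoters were poorer in G and C, with a median of 41.2% against 58%. A match is a run of letters and not a measured binding site. The motifs can share letters at their ends, and each match counted for its own motif.

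A peak stood at the start of nearly as many core histone genes as not, and, apart from H4C12, a gene had it in all 6 libraries or in none. Of 51 core histone genes whose start could be placed on hg19, 24 had a peak within 250 bp of the start in all 6 libraries. One more, H4C12, had it in 5 libraries, with WT replicate 3 missing, and 26 had none in any library. The 24 include H2BC5, whose region also covers the linker histone gene H1-4. By family, a peak in all 6 libraries stood at 8 of 13 H2A, 7 of 15 H2B, 3 of 10 H3 and 6 of 13 H4 starts. By cluster, it stood at 13 of 25 starts in the proximal 6p22 cluster, 8 of 15 in the distal 6p22 cluster, 3 of 8 at 1q21 and 0 of 3 at 1q42. Within 1 kb of the start the number rose to 26.

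The genes with no peak listed at the start were H2AC8, H2AC16, H2AC17, H2AC19 and H2AC25 for histone H2A and H2BC3, H2BC6, H2BC8, H2BC9, H2BC10, H2BC17, H2BC18 and H2BC26 for H2B. For histone H3 they were H3C3, H3C7, H3C8, H3C11, H3C12, H3C13 and H3-4, and for H4 they were H4C4, H4C6, H4C7, H4C13, H4C14 and H4C15. H3-4 is the testis H3 gene, and with H2AC25 and H2BC26 it makes up the 1q42 cluster, where no start had a peak. Among promoters with a peak in all 6 libraries, CCAAT stood in 18 of 22 (81.8%), against 20 of 24 (83.3%) of those with none. TATAAA stood in 16 of 22 (72.7%) against 13 of 24 (54.2%), and ATTTGCAT in 10 of 22 (45.5%) against 10 of 24 (41.7%). These differences were not tested. At 1q21 the genes H4C14, H2AC19 and H4C15 lie in a duplicated stretch with near-identical copies, and how the authors treated reads that map to several places is not given in the sources used here. An absent peak there is therefore uncertain, and so is one at any histone gene whose coding sequence a paralog shares.

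The regions at core histone starts were wide, and most were taller than the median region. They numbered 16, since H2A and H2B starts that face each other share a region, and their median summit pileup was 1.73, 1.80 and 1.94 times the library's median over all shared regions in the WT libraries. In the CRAMP1-KO libraries it was 1.97, 1.94 and 1.78 times. Summit pileup is the number of fragments stacked at the highest point of a peak, solved from the deposited fold enrichment and −log10 p, and it is called relative pileup when divided by that library median. The genotypes overlapped in this value. The median width of these 16 regions was 1257.5, 1200.5 and 1179 bp across WT libraries and 1290, 1378 and 1340 bp in CRAMP1-KO, against 506 to 656 bp over all shared regions. Averaged over libraries, 11 of the 16 stood above the median pileup of all shared regions, and 1 stood in the top 10%. In width, 14 stood above the median and 8 in the top 10%. The 29 other cluster regions with a peak in every library, which lie between or beside the genes, had a median relative pileup of 0.866, 0.897 and 1.02 across WT libraries and of 0.820, 0.952 and 0.823 in CRAMP1-KO. This division into starts and the rest was made after the data had been seen.

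The highest start was the 1q21 region chr1:149856337-149860235 (hg19), which holds the starts of H2BC21, H2AC20 and H2AC21. Its relative pileup was 3.76, 4.56 and 4.57 across WT libraries and 4.28, 4.76 and 4.07 in CRAMP1-KO, and the genotypes overlapped. It was also the widest, at 3705, 2950 and 2813 bp across WT libraries and 3244, 3559 and 3153 bp in CRAMP1-KO. The highest summit of a region can lie at different points in different libraries. Here it lay at -90, -115 and -84 bp from the H2BC21 start across WT libraries, and at -1371, -84 and -83 bp in CRAMP1-KO. H2BC21 encodes an H2B that is made outside S phase as well. Second came the region of H3C1 and H4C1, the first H3 and H4 genes of the proximal cluster, with 2.48, 3.09 and 3.13 across WT libraries and 3.23, 3.32 and 2.80 in CRAMP1-KO. The third, chr6:27759032-27760975, crosses the left edge of the distal window and lies beyond any core histone start, with 2.70, 2.82 and 3.26 across WT libraries and 2.70, 2.94 and 2.54 in CRAMP1-KO. H2BC13/H2AC13, a back-to-back pair of the distal cluster, was among the 3 widest at 1768, 1944 and 1918 bp across WT libraries and 2086, 2043 and 1943 bp in CRAMP1-KO, but its relative pileup was only 0.856, 0.874 and 1 against 1.10, 1.02 and 0.948. At the low end stood H4C12, with 0.660, 0.862 and 0.585 across WT libraries and 0.934, 0.677 and 0.760 in CRAMP1-KO.

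**Figure D1:**
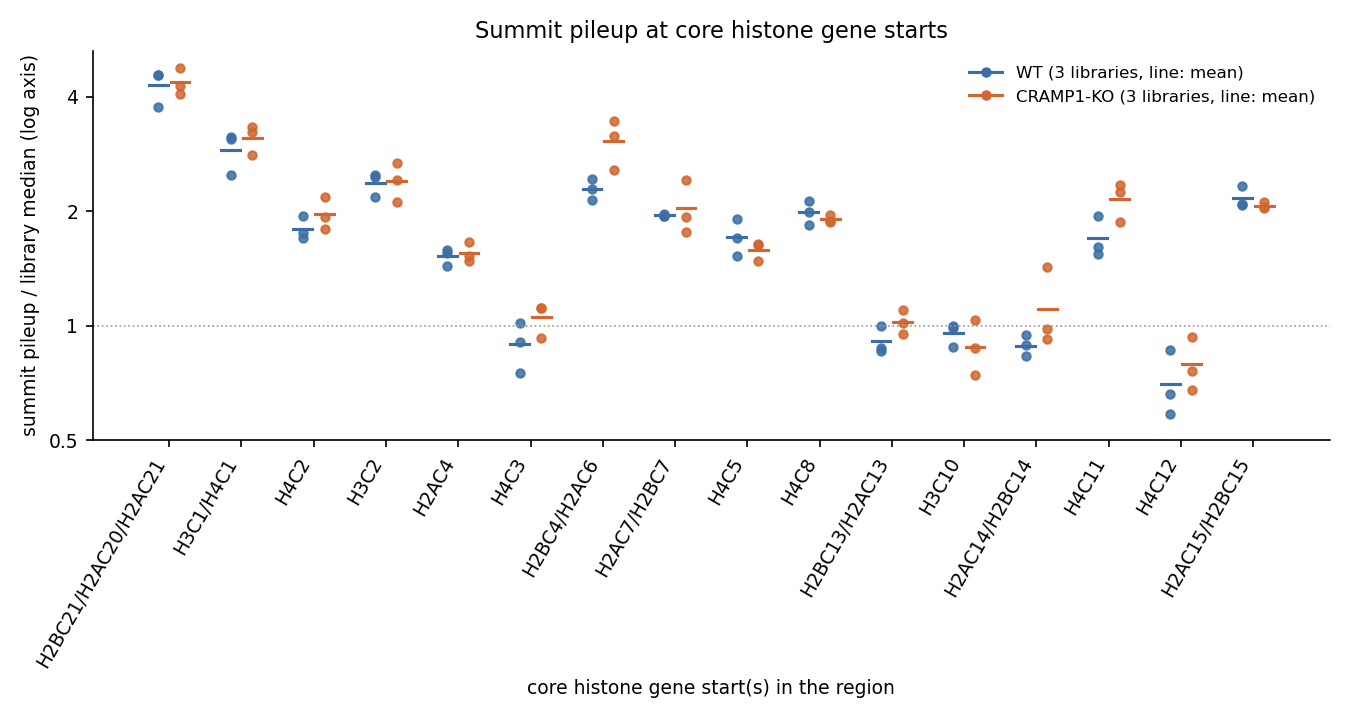
Relative summit pileup (log axis, no unit) of the 16 regions at core histone gene starts in the 3 WT and 3 CRAMP1-KO libraries, with lines at the group means and a dotted line at the library median of all shared regions. The points of the genotypes overlap in most regions, and the CRAMP1-KO points lie above all WT points at H2BC4/H2AC6.

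In CRAMP1-KO, summit pileup rose in 2 regions that hold core histone starts, H2BC4/H2AC6 and H4C11. It fell in 4 regions that are not at a core histone start. These were the calls among the 45 shared cluster regions (limma with Benjamini-Hochberg adjustment over all 92505 shared regions, adjusted p at most 0.05). The same test called 9.36% of all shared regions higher in CRAMP1-KO and 15.5% lower, so the clusters held calls in neither direction more often than the genome. At an unadjusted p under 0.05 stood 12 of the 45 cluster regions and 34326 of all regions. Set as a ratio to the local background, the fall at chr6:27874273-27874593 was the 1 call that stood.

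H2BC4 and H2AC6 are an H2B and an H2A gene that start back to back in the proximal cluster, and their common region is chr6:26122755-26124911. Its relative pileup was 2.13, 2.43 and 2.28 across WT libraries and 3.46, 3.16 and 2.56 in CRAMP1-KO. Every CRAMP1-KO library stood above every WT library. The change was 0.42 ± 0.10 (SE) on the log2 scale of CRAMP1-KO over WT, from 2.28 ± 0.146 to 3.06 ± 0.457 (SD, n = 3; limma, Benjamini-Hochberg adjusted p = 0.00169), and the call held on leaving out any 1 library. The local background around the summit, which is the fragment density that the peak caller expects there, rose with it by 0.34 ± 0.10 (limma, Benjamini-Hochberg adjusted p = 0.0108). Taken as a ratio to that background, the summit changed by 0.11 (limma, Benjamini-Hochberg adjusted p = 0.706), which was not called. The background comes from the same library and may hold fragments of the region itself. The ratio therefore cannot show whether the summit rose over separate surroundings. The width of the region was 1921, 1730 and 1714 bp across WT libraries and 2135, 1758 and 1796 bp in CRAMP1-KO, which overlap. Without an intensity trend in limma the adjusted p of the pileup was 0.0541. The AT-rich H2AC6 promoter printed above, with its 3 CCAAT boxes, octamer and TATAAA, lies between these starts. Counted from the H2AC6 start, the summit lay at -260, -259 and -125 bp across WT libraries. In CRAMP1-KO it lay at -364, -358 and -407 bp, farther out than in any WT library. Only the summit of WT replicate 3 was within the printed bases. The tested pileup is therefore mostly not that of the printed promoter, and it was taken at different points in the genotypes.

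H4C11, an H4 gene of the distal cluster, had 1 peak per library in chr6:27791536-27792769. This region covers the start, but its summits lay 348, 381 and 345 bp after it across WT libraries and 346, 372 and 381 bp in CRAMP1-KO. The tested pileup is therefore not that of the printed promoter. Relative pileup there was 1.55, 1.61 and 1.94 across WT libraries and 2.34, 2.24 and 1.88 in CRAMP1-KO. WT replicate 3 lay just above CRAMP1-KO replicate 3, and the other libraries were apart. The change was 0.34 ± 0.11 (SE) on the log2 scale, from 1.70 ± 0.213 to 2.15 ± 0.247 (SD, n = 3; limma, Benjamini-Hochberg adjusted p = 0.0127). The call was lost without any 1 of 4 libraries: the limma adjusted p became 0.0625 or 0.0711 on leaving out replicate 1 or 2 of WT, and 0.0888 or 0.0541 on leaving out replicate 1 or 2 of CRAMP1-KO. As a ratio to the local background the change was 0.25 (limma adjusted p = 0.360), and without an intensity trend the adjusted p of the pileup was 0.101.

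Right beside H4C11, the opposite was seen. The next region, chr6:27793737-27796164, begins 967 bp past the end of the H4C11 region and is among the 3 widest of the clusters, at 2202, 2399 and 2246 bp across WT libraries and 2217, 1933 and 2108 bp in CRAMP1-KO. Its relative pileup was 2.08, 2.55 and 2.36 across WT libraries and 1.97, 1.68 and 1.82 in CRAMP1-KO, with every CRAMP1-KO library below every WT library. It fell by 0.35 ± 0.10 (SE) on the log2 scale (limma, Benjamini-Hochberg adjusted p = 0.00760). On leaving out replicate 2 of WT the limma adjusted p became 0.0852, and on leaving out replicate 2 of CRAMP1-KO it became 0.0525, and it was 0.0700 without an intensity trend. Neighbouring accessible sites within 1 gene cluster thus differed in direction, while their local backgrounds changed by 0.11 and 0.12 on the log2 scale (limma adjusted p = 0.542 and 0.495).

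The largest fall was at chr6:27874273-27874593, a narrow region near the right edge of the distal window, where H2BC17 is the nearest core histone gene. Relative pileup was 1.28, 1.10 and 1.21 across WT libraries and 0.607, 0.952 and 0.604 in CRAMP1-KO, without overlap. It fell by 0.76 ± 0.15 (SE) on the log2 scale (limma, Benjamini-Hochberg adjusted p = 6.3e-05), and the call held without any 1 library. Its width was 313, 321 and 309 bp across WT libraries and 286, 175 and 271 bp in CRAMP1-KO, also without overlap. The local background changed by 0.02 (limma adjusted p = 0.911).

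The remaining 2 falls lay in the proximal cluster, 7376 and 20609 bp from the start of H3C3, the nearest placed core histone start, which had no peak. A region that touches an H1 gene, chr6:26055123-26056850, lies between these 2 sites. At chr6:26053015-26053429 relative pileup was 1.39, 1.57 and 1.42 across WT libraries and 1.08, 1.21 and 1.11 in CRAMP1-KO, without overlap, a log2 change of -0.36 ± 0.12 (SE; limma, Benjamini-Hochberg adjusted p = 0.0155). By the same limma fit this call was lost without WT replicate 2 (Benjamini-Hochberg adjusted p = 0.106) or without replicate 1 of CRAMP1-KO (0.0557). At chr6:26066248-26067055 it was 0.784, 0.885 and 1.09 across WT libraries and 0.787, 0.597 and 0.625 in CRAMP1-KO, where WT replicate 1 overlapped CRAMP1-KO replicate 1. The log2 change was -0.46 ± 0.15 (SE; limma, Benjamini-Hochberg adjusted p = 0.0230), and leaving out replicate 2 or 3 of either genotype ended the call, with adjusted p from 0.0545 to 0.185, as did a fit without the trend (0.0626).

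Among the uncalled regions with the largest values, chr6:26223765-26224640 near H2AC8 had 0.526, 0.540 and 0.509 across WT libraries and 0.787, 0.758 and 0.583 in CRAMP1-KO, a change of 0.42 (limma, Benjamini-Hochberg adjusted p = 0.0578). The genotypes did not overlap there. At H2AC14/H2BC14 the change was 0.30 (limma adjusted p = 0.111), and at the region chr1:149821309-149822223 beside H2AC19 it was 0.27 (limma adjusted p = 0.255). The largest values in the other direction were -0.48 at chr1:149819970-149820996 beside H2AC19, -0.45 at chr1:228617725-228618246 near H3-4 and -0.38 at chr6:26064880-26065320 after H3C3, with limma adjusted p = 0.0675, 0.0843 and 0.114. These 2 neighbouring 1q21 sites lie in the duplicated stretch, so their reads may be shared with another copy.

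By sign alone, the starts and the other cluster regions leaned in different directions. Of the 16 start regions, 12 had a higher relative pileup in CRAMP1-KO, of the 29 others 11 had, and of all shared regions 38234 of 92505 had. The median log2 change was 0.08 at the starts, -0.10 at the others and -0.07 over all shared regions, and 0.02 over the 45 cluster regions together. No test was made of these counts and medians. These values depend on the scale. As a ratio to the local background, the median change was -0.09 over the cluster regions and -0.06 over all shared regions. On that scale the starts were not counted apart from the other cluster regions, so their lean may not hold there. The values also depend on how the libraries are scaled. With each library set to the relative depth index in place of its median, the median change was 0.09 over all shared regions and 0.17 over the cluster regions, no cluster region was called in either direction, and the calls over all regions went from 8656 higher and 14370 lower to 2846 higher and 458 lower.

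**Figure D2:**
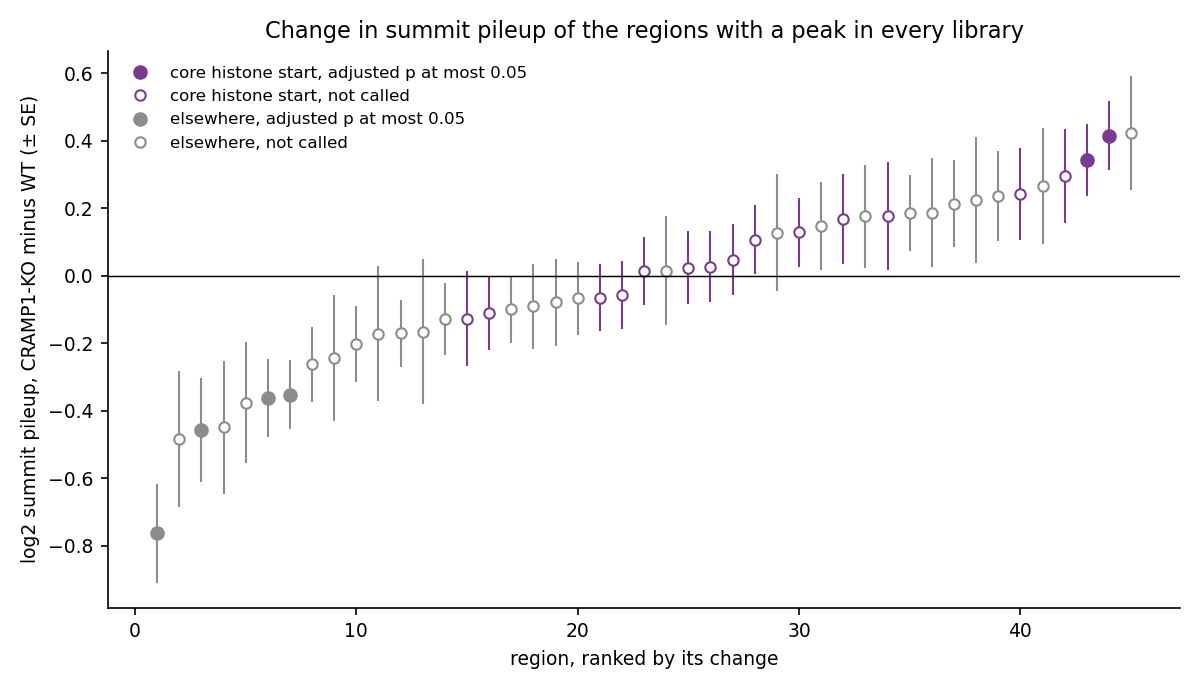
Log2 change of summit pileup in CRAMP1-KO over WT (± SE, limma) for the 45 cluster regions with a peak in all 6 libraries, ranked from the lowest to the highest (3 libraries per genotype). Filled points passed the adjusted threshold of 0.05, and these are 2 core histone start regions above 0 and 4 other regions below 0.

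The fragment density around the summit passed the test at 1 of the 16 core histone start regions, H2BC4/H2AC6. At an unadjusted limma p under 0.05 stood 4 of the 16, beside 25011 of all 92505 shared regions, so the starts were not richer in such values. By sign alone, the change of local background, centred per library, was above 0 in 16 of 16 start regions, in 12 of 29 other cluster regions and in 39777 of all 92505 shared regions. At the starts it ran from 0.05 to 0.34 on the log2 scale, with a median of 0.11, beside medians of -0.01 at the other cluster regions and -0.02 over all shared regions. The background has a lowest value in each library, and a region at that floor in all 6 libraries takes -0.0152 after centring. The median over all shared regions was the same -0.0152. Regions at the floor thus count as below 0 whatever their surroundings, while all 16 start regions stood above it. Scaling by the depth index adds the same amount to every region, and the median over all shared regions was then 0.14. The start regions are close neighbours whose background windows can hold the same fragments, so they are not independent of each other.

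The background passed the test in 5 of the 45 regions, higher in 4 and lower in 1 (limma, Benjamini-Hochberg adjusted p at most 0.05). Over all shared regions 8.71% were called higher and 8.4% lower. The 4 rises were in the proximal cluster. They lay at H2BC4/H2AC6 and the region chr6:26126065-26126584 beside it, which rose by 0.32 (limma adjusted p = 0.0184). The other pair lay beside H2AC7, at chr6:26195650-26196388, which rose by 0.28 (limma adjusted p = 0.0240), and at chr6:26196981-26197708, which rose by 0.26 (limma adjusted p = 0.0442). Summit pileup at these 3 further regions changed by 0.15, 0.21 and -0.07, with limma adjusted p = 0.423, 0.224 and 0.684. The fall was at chr1:228617725-228618246 near H3-4 (-0.26, limma adjusted p = 0.00470). Its CRAMP1-KO backgrounds were 3.27, 3.02 and 4.15. They stood at or near the lowest background of those libraries, 3.19, 3.02 and 4.08, and so may not measure the local density. Local background follows both broad accessibility and the number of DNA copies, and it may hold fragments of the peaks themselves. With peak lists alone these cannot be told apart. Leaving out CRAMP1-KO replicate 2 left no rise called. Leaving out WT replicate 3, or replicate 1 or 3 of CRAMP1-KO, left 1, and leaving out WT replicate 2 gave 7. The fall was not called when WT replicate 3 was left out. Leaving out WT replicate 1 gave 3 falls, and leaving out replicate 2 of either genotype gave 2.

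No start passed the test of width, and the direction depended on the scale. On the tested scale, log2 width centred per library, the change was above 0 at 7 of the 16 starts and below 0 at 9, with a median of -0.022, beside -0.040 over all shared regions. In bp, before any scaling, more starts were wider in CRAMP1-KO. Of the 16 start regions, 7 were wider in every CRAMP1-KO library than in any WT library and 1 was narrower, beside 1 wider and 1 narrower of the 29 other cluster regions. Over all shared regions 19.2% were wider and 3.03% narrower by the same count, which was chosen after the data had been seen. Relative to the library's own median width, 3 of the 16 starts were wider and 1 narrower, against 7.54% and 11.3% of all shared regions. Without WT replicate 1, the deepest library, 12 of the 16 starts were wider, against 30.4% of all shared regions.

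The 7 starts wider in bp were H2AC4, H3C2, H4C8, H4C5, H3C1/H4C1, H2AC7/H2BC7 and H2AC15/H2BC15. On the centred log2 scale H3C1/H4C1 changed by -0.024 and H2AC7/H2BC7 by -0.039. H2AC4, an H2A gene, was covered over 948, 858 and 640 bp across WT libraries and 1240, 1205 and 1176 bp in CRAMP1-KO. Its neighbour H3C2, whose region ends 245 bp before that of H2AC4, was covered over 665, 708 and 614 bp across WT libraries and 803, 833 and 835 bp in CRAMP1-KO. Their summit pileup changed by 0.02 ± 0.11 at H2AC4 and 0.01 ± 0.10 at H3C2 (SE, log2 scale), less than the error. The H4 gene H4C8 was covered over 942, 669 and 839 bp across WT libraries and 1217, 1102 and 1068 bp in CRAMP1-KO. H4C5, another H4 gene, was covered over 1612, 1643 and 1312 bp across WT libraries and 2151, 1670 and 2242 bp in CRAMP1-KO. There the WT signal was broken into 4, 2 and 4 peaks and the CRAMP1-KO signal into 1, 2 and 1. Smaller separations were seen at H3C1/H4C1, with 1644, 1694 and 1640 bp against 1814, 1817 and 1730 bp, and at H2AC15/H2BC15, with 1281, 1217 and 1172 bp against 1372, 1506 and 1455 bp. H2AC7/H2BC7 measured 1192, 1106 and 1133 bp across WT libraries and 1195, 1250 and 1209 bp in CRAMP1-KO, a gap of 3 bp between the nearest libraries. The 1 narrower start was H3C10, with 579, 531 and 569 bp across WT libraries and 516, 463 and 442 bp in CRAMP1-KO.

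**Figure D3:**
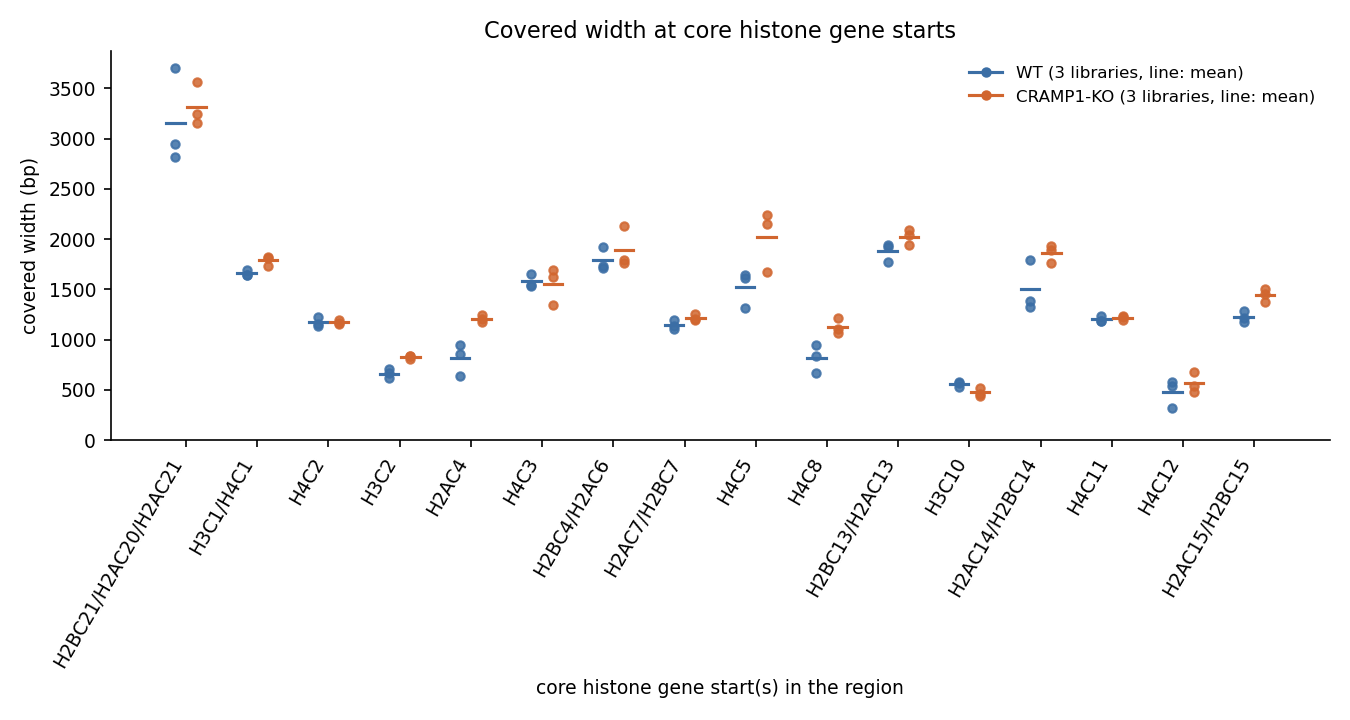
Covered width in bp of the 16 regions at core histone gene starts in each WT and CRAMP1-KO library, with lines at the group means (3 libraries each). All 3 CRAMP1-KO points lie above all 3 WT points in 7 regions, among them H2AC4 and H4C5, and below them at H3C10.

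In the test of log2 width centred per library, 0 of the 45 cluster regions were called wider and 0 narrower (limma, Benjamini-Hochberg adjusted p at most 0.05), while 6 were at an unadjusted p under 0.05. Over all shared regions the test called 0.0281% wider and 0.0141% narrower, and 11011 were at an unadjusted p under 0.05. The width of H2AC4, the start with the largest rise in width on this scale, changed by 0.45 ± 0.11 (SE; limma, Benjamini-Hochberg adjusted p = 0.185).

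At H2AC14/H2BC14, a back-to-back pair in the distal cluster, the WT signal was split and the CRAMP1-KO signal was joined. Each WT library had 2 peaks in chr6:27782021-27784029 and each CRAMP1-KO library had 1. It was the 1 cluster region split in 3 of 3 WT and 0 of 3 CRAMP1-KO libraries, a pattern found in 0.373% of all shared regions, and 0 cluster regions had the reverse, found in 0.0119%. Together the peaks covered 1790, 1327 and 1382 bp across WT libraries and 1930, 1760 and 1889 bp in CRAMP1-KO. Relative pileup was 0.887, 0.943 and 0.830 across WT libraries and 1.43, 0.919 and 0.979 in CRAMP1-KO, in which WT replicate 2 overlapped CRAMP1-KO replicate 2. Counted from the H2BC14 start, the highest summit lay at -306, -314 and -161 bp across WT libraries. In CRAMP1-KO it lay at 125, -312 and -307 bp. The value of 1.43 in CRAMP1-KO replicate 1 was thus taken on the other side of that start. Averaged over the summits of a region, in place of the highest, the log2 change was 0.75 against 0.30. That average takes in the second, lower summit in each WT library and a single summit in each CRAMP1-KO library, so it restates the split and is given without a test. When peaks were merged only at an overlap of 100 bp, no cluster region met the criterion. Over the 16 starts together, 7, 4 and 4 regions were split among WT libraries and 1, 3 and 0 in CRAMP1-KO, while 5.53%, 3.35% and 5.03% of all shared regions were split among WT libraries and 2.15%, 2.96% and 2.11% in CRAMP1-KO.

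The region chr6:26156467-26159050 at the H2BC5 start has the same shape, but it also covers H1-4 and was set aside for that reason. It held 2 peaks in each WT library and 1 in each CRAMP1-KO library. The second WT peak, which covers the H2BC5 start, misses the H1 gene in WT replicate 1 and counts there as a core histone peak, whereas those of WT replicates 2 and 3 reach into it and do not count. Leaving out both regions that touch an H1 gene changed the proximal share of peaks as given below.

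The WT libraries held more cluster peaks than the CRAMP1-KO libraries, both in the shared regions and in the others. Cluster peaks numbered 84, 72 and 65 across WT libraries and 54, 61 and 57 in CRAMP1-KO. In the 45 shared regions there were 56, 52 and 53 peaks across WT libraries and 48, 51 and 47 in CRAMP1-KO. In the other 45 regions there were 27, 20 and 13 across WT libraries and 6, 10 and 10 in CRAMP1-KO. Counted by region, WT replicate 1 has 1 peak fewer in all, the one at H2BC5 whose region touches H1-4, and WT replicate 3 has 1 more, a peak just outside the distal window in a region that reaches into it. Every CRAMP1-KO library was below every WT library in each of these counts.

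**Figure D4:**
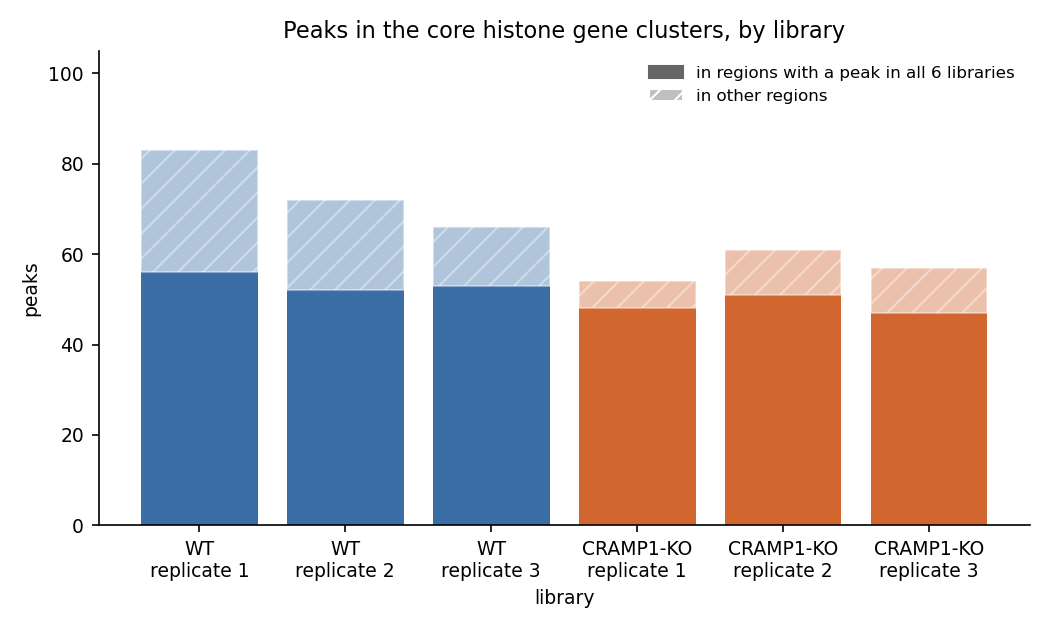
Number of peaks in the core histone gene clusters in each library, divided into regions with a peak in all 6 libraries (solid) and other regions (hatched), counted by region. WT bars are taller than CRAMP1-KO bars, with 27, 20 and 13 peaks of the hatched kind in the WT libraries against 6, 10 and 10 in CRAMP1-KO.

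None of these other 45 regions was at a placed core histone start. Of them, 33 (73.3%) held a peak in more WT than CRAMP1-KO libraries and 10 (22.2%) in more CRAMP1-KO than WT libraries. Of all 155526 regions without a peak in every library, 55.0% leaned to WT and 31.7% to CRAMP1-KO. A single library had the only peak in 27, which was a WT library in 18 (40%) and a CRAMP1-KO library in 9 (20%), against 33.1% and 15.8% of all such regions. They made up 32.5%, 27.8% and 19.7% of the peaks in all 90 cluster regions across WT libraries and 11.1%, 16.4% and 17.5% in CRAMP1-KO. Over the deposited lists outside the clusters the same shares were 50.8%, 36.9% and 26.6% across WT libraries and 29.3%, 31.5% and 40.2% in CRAMP1-KO, which overlap between genotypes. WT replicate 1 had 2.19 times the depth index of the shallowest library and the longest list, and CRAMP1-KO replicate 3, with 1.40 times, was the deepest of its group but not the richest in cluster peaks. The part of depth in these counts was not tested apart from the shares and equal lists given here.

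As a share of all peaks the clusters did not separate the genotypes, and 1 of the 4 clusters did. Cluster peaks made up 4.22, 4.75 and 4.90 per 10000 across WT libraries and 4.04, 4.38 and 3.61 in CRAMP1-KO, or 4.62 ± 0.354 against 4.01 ± 0.387 (SD, n = 3; two-sided exact permutation p = 0.2). With lists of equal length the groups no longer overlapped, at 5.02 against 4.22 (exact permutation p = 0.1, the smallest that 3 libraries against 3 can give). In the proximal 6p22 cluster, 43, 37 and 33 peaks across WT libraries and 25, 30 and 27 in CRAMP1-KO made up 2.16, 2.44 and 2.49 per 10000 across WT libraries and 1.87, 2.15 and 1.71 in CRAMP1-KO. This was 2.36 ± 0.176 against 1.91 ± 0.226 (SD, n = 3; exact permutation p = 0.1, again the smallest possible), and the nearest libraries of the genotypes were WT replicate 1 and CRAMP1-KO replicate 2. The genotypes overlapped, with exact permutation p = 0.2, when peaks that overlap an H1 gene were kept in, when regions touching an H1 gene were left out or at a −log10 q of at least 10, and with p = 0.3 at a −log10 q of at least 5.

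The other clusters overlapped in their shares. The distal 6p22 cluster held 20, 19 and 17 peaks across WT libraries and 16, 17 and 18 in CRAMP1-KO, or 1.18 ± 0.152 against 1.19 ± 0.0419 per 10000 (SD, n = 3; exact permutation p = 1). At 1q21 there were 9, 8 and 9 against 6, 7 and 6 peaks, or 0.553 ± 0.115 against 0.444 ± 0.0616 per 10000 (SD, n = 3; exact permutation p = 0.2). The 1q42 cluster held 12, 8 and 6 against 7, 7 and 6 peaks, or 0.528 ± 0.0756 against 0.469 ± 0.0776 per 10000 (SD, n = 3; exact permutation p = 0.4). None of these tests can pass a threshold of 0.05 with 3 libraries per genotype.

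The covered length overlapped between genotypes. Bases under cluster peaks made up 550, 569 and 603 per 1000000 covered bases across WT libraries and 591, 595 and 506 in CRAMP1-KO, or 574 ± 27.0 against 564 ± 50.0 (SD, n = 3; exact permutation p = 0.8). In the proximal cluster they made up 267 ± 10.9 against 256 ± 25.8 (SD, n = 3; exact permutation p = 0.7). Over the 10 tests of shares of peaks and of bases, in the 4 clusters and together, the lowest Benjamini-Hochberg adjusted exact permutation p was 0.5. The median width of a cluster peak was 459, 536 and 394 bp across WT libraries and 635.5, 603 and 620 bp in CRAMP1-KO, without overlap. Over all peaks of the deposited lists the median was 351, 425 and 378 bp across WT libraries and 463, 430 and 457 bp in CRAMP1-KO, also without overlap, and the cluster medians are over different sets of peaks in each library. In the 45 shared cluster regions the median width over the library's median was 1.23, 1.15 and 1.12 across WT libraries and 1.32, 1.24 and 1.20 in CRAMP1-KO, which overlap, and 29 of the 45 centred changes were below 0. By cluster, the median peak width did not overlap in the proximal cluster, with 424, 518 and 428 bp against 665, 590.5 and 555 bp, or in the distal cluster, with 607, 581 and 553 bp against 861.5, 857 and 740 bp. It overlapped at 1q21, with 673, 608.5 and 392 bp against 533.5, 417 and 551 bp, where the mean over libraries was lower in CRAMP1-KO, and at 1q42, with 299.5, 410.5 and 482.5 bp against 623, 474 and 571 bp.

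Only 1 cluster region had a peak in 3 of 3 WT and 0 of 3 CRAMP1-KO libraries, and 0 had the reverse. Over all 248031 merged regions 1.14% had the first pattern and 0.767% the second. The region was chr6:26029096-26029409, between H4C2 and H3C2, with −log10 q values of 11.3, 8.03 and 6.27 in those WT libraries. It sits between 2 starts that had peaks in every library, H4C2 at 1.75, 1.70 and 1.94 relative pileup across WT libraries and 2.18, 1.94 and 1.79 in CRAMP1-KO, and H3C2 at 2.18, 2.48 and 2.45 across WT libraries and 2.67, 2.42 and 2.11 in CRAMP1-KO. The count of such regions became 4 on leaving out WT replicate 2, 3 on leaving out WT replicate 3 or CRAMP1-KO replicate 2, and 2 on leaving out WT replicate 1. With a library left out the pattern is easier to meet, so this count cannot fall. The share of all merged regions that met these looser criteria is not given here, so the counts show no excess in the clusters.

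The deposited lists as a whole held 132686 to 198875 peaks for WT and 133756 to 157997 in CRAMP1-KO, and WT replicate 1 stood apart with a median fold enrichment of 4.25 against 5.96 to 6.26 in the others. The lists hold no read counts, so the depth in reads is unknown. Starts of the mesenchymal genes COL1A1, COL1A2 and VIM had a peak within 1 kb in all 6 libraries, TWIST1 in 1 and RUNX2, at the position used, in 0. Starts of the leukocyte genes PTPRC and CD3E, the liver gene ALB and the glial gene GFAP had none, and the epithelial gene EPCAM had a peak in all 6.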

How the data were processed

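ATAC-seq of 3 WT and 3 CRAMP1-KO U2OS libraries was aligned by the authors to hg19 with BWA 0.7.17-r1188 after bcl2fastq 2.20.0 and cutadapt 3.4, and peaks came from MACS3, per the submitters' processing notes. Not given in the sources used here are the settings, the handling of duplicate and multiply mapped reads and any transposase shift. A peak list per library was deposited. The deposited score is 10 times the −log10 q of a peak in nearly all peaks. The deposited fold enrichment is a ratio of summit pileup to local background, and −log10 p and −log10 q, as deposited, compare a peak with that background. Each peak also has a deposited summit offset. No read counts are given, so depth in reads and counting errors are unknown.

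Pileup and background at each summit were solved from fold enrichment and the Poisson −log10 p. The pileup came out whole, within 0.01, in all peaks. A depth index was each library's lowest background over its lowest peak width. Peaks of chromosomes 1 to 22 and X were merged into regions at an overlap of at least 1 bp, and a region that touched an H1 gene in any library was not counted as a cluster region. For each region with a peak in all 6 libraries, log2 pileup at the highest summit, covered width and local background were centred per library on the median over such regions. The test was limma 3.58.1 (R 4.3.3) with an intensity trend, two-sided, with Benjamini-Hochberg adjustment over all 92505 regions and a threshold of 0.05. Shares were tested by exact permutation of the genotype labels, two-sided, with 20 assignments and 0.1 as the smallest p. The solver and the fit were tested on simulated data.

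The members, gene lists and named regions were chosen with earlier results of these data known. Named were regions called by a fit, the 5 largest rises and 5 largest falls of pileup, the 3 highest and 3 widest, regions present or split in 1 genotype only, and starts with no peak. A region took the name of a core histone gene whose start lay within 250 bp, otherwise of the nearest. Starts of 56 core histone genes were written by hand for hg19, since no hg19 annotation was used here, and their spacing was checked against RefSeq GRCh38.p14. Of these, 51 were placed, with deviations of up to 84 bp, and H3C4, H3C6, H3C14, H2AC18 and H3C15 were not placed and take part in no count of starts. Promoter sequences are those of RefSeq GRCh38.p14. Median widths and median pileups over the clusters are given without a test. Alternatives covered scalings, filters, merging rules, leaving out single libraries and a replicate block. Python 3.11.15, numpy 2.4.6, pandas 2.3.3, scipy 1.17.1 and matplotlib 3.10.9 were used.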

Additional observations from a re-analysis of the deposited data

How the results depend on the processing

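Of 543 recomputed values, 438 kept their direction and their side of the threshold, 66 lost a call or came to a lower count by over 1.5 times, 17 gained one or came to a higher count, 20 changed sign and 2 moved by more than the spread between libraries. With libraries set to the depth index, 0 cluster regions were called higher and 0 lower in pileup, and 0 higher and 0 lower in background. The log2 pileup change turned to 0.092 at chr6:26196981-26197708 and to 0.060 at chr6:27759032-27760975. As a ratio to the local background, 0 regions were called higher and 1 lower in pileup, and the change became -0.16 at H2BC21/H2AC20/H2AC21, -0.066 at H3C1/H4C1, -0.14 at chr6:26126065-26126584 and -0.042 at chr6:26195650-26196388. Without a trend, 0 regions were called higher in pileup. With the mean over summits there were 4, and chr6:27759032-27760975 stood at 0.052. Requiring a −log10 q of at least 10 left 0 regions called lower in background and turned the difference in the distal share to -0.0312 per 10000 peaks. At a −log10 q of at least 5 or 10 the median log2 relative pileup of the clusters differed by -0.036 and -0.043, CRAMP1-KO minus WT. Counting peaks wholly inside a window turned the distal share to -0.00057, and keeping H1 peaks turned the covered share to 0.924 per 1000000 bases. Merging at 100 bp left 0 split regions, and 3 starts were wider relative to the library median. The cause of these shifts was not tested.

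Leaving out each library in turn gave 1 to 3 regions called higher and 1 to 4 lower in pileup, and 0 to 7 higher and 0 to 3 lower in background. It gave 1 to 4 regions found in WT only and 7 to 12 wider starts, both patterns that are easier to meet with fewer libraries. The log2 pileup change ran from -0.066 to 0.076 at H2BC21/H2AC20/H2AC21, from -0.0011 to 0.18 at H3C1/H4C1 and from -0.16 to 0.022 at chr6:26196981-26197708. The difference in covered share ran from -25.4 to 18.9 per 1000000 bases, in the proximal covered share from -22.6 to 2.94 and in the distal share of peaks from -0.0816 to 0.0562 per 10000.

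Same-numbered libraries correlated at 0.0556, 0.0622 and -0.0903 in their deviations from the genotype means, so the numbers were not taken as pairs. With a replicate block, 2 cluster regions were called higher and 4 lower in pileup, 5 higher and 1 lower in background and 0 in width. The difference in the share of peaks over all clusters was -0.615 per 10000 in this paired form (exact permutation p = 0.25, the smallest that 3 pairs can give). Because the lists hold no reads, a site without a peak cannot be told from one just under the caller's limit.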
